A study of Rattus norvegicus with 6 samples.

Results

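The genes analysed here encode 8 isoforms of protein kinase C (PKC), Prkca, Prkcb, Prkcd, Prkce, Prkch, Prkci, Prkcq and Prkcz, chosen by gene symbol out of the 38445 genes counted. Genes of other isoforms were not analysed here. The amygdala was profiled by RNA-seq in adult male Sprague Dawley wild-type rats that received an intraperitoneal injection of saline (control) or ethanol at 1 g/kg, and the tissue was collected after 1 h. Each library was made from the pooled RNA of 2 rats and each group has 3 libraries, so the p-values rest on the spread between pools. The reads assigned to genes ranged from 62576504 to 70755739 per library. Levels are given as CPM, the read count of a gene scaled to a common library total with factors from the trimmed mean of M values (TMM), and levels of different genes are compared only as RPKM, which also divides by the exonic length of the gene in kilobases.

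PKC enzymes are serine/threonine kinases that act downstream of receptors coupled to Gq proteins. Phospholipase C splits a membrane lipid into inositol trisphosphate, which releases calcium, and diacylglycerol, which binds the kinases. The classical isoforms (here alpha and beta) respond to calcium and diacylglycerol, the calcium-independent isoforms (delta, epsilon, eta and theta) to diacylglycerol alone, and the atypical isoforms (iota and zeta) to neither, acting instead in protein complexes. In the brain, PKC phosphorylates receptors, channels and release machinery, and mice without PKC epsilon are known for their altered response to alcohol. In the amygdala, Prkcd marks a class of GABA neurons of the lateral central nucleus.

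Of the 18141 genes tested for a difference between ethanol and control, 4.15% (753) reached an unadjusted p under 0.05, 1.57% being higher and 2.58% lower after ethanol. At an adjusted p under 0.2 there were 0 genes by edgeR's quasi-likelihood test (smallest adjusted p = 0.818, Benjamini-Hochberg) and 75 by DESeq2. The tissue label was checked against marker lists. All 17 markers found of central amygdala and striatal-type GABA neurons and all 10 of basolateral and cortical-type glutamatergic neurons were above 1 CPM in every library, as were 9 of 10 thalamic markers. The thalamic list passed nearly as fully, so detection cannot decide the tissue label. The libraries differed in the levels of some cell type markers. The summed level of 9 choroid plexus markers was 519, 1129 and 891 CPM in the controls, 11.6 and 13.1 CPM in ethanol replicates 1 and 2 and 481 CPM in ethanol replicate 3. Only 2 of these 9 markers were above 1 CPM in every library. Of the markers tested, 4 of 8 for choroid plexus and 6 of 7 for multiciliated cells were lower after ethanol at an unadjusted p below 0.05, and none of either list was higher. In bulk tissue, fewer cells of a type and less RNA per cell cannot be told apart.

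The 8 isoforms differed widely in level. Per length, Prkce was the most abundant and Prkch the least. The mean level of Prkce over the 6 libraries was 76.8 ± 11.7 RPKM (SD, n = 6), that of Prkcb 43.2 ± 6.41 RPKM and that of Prkcz 36.9 ± 1.83 RPKM. Prkci followed at 24.7 ± 1.66 RPKM and Prkca at 23.8 ± 4.14 RPKM. Prkcd stood at 8.28 ± 0.517 RPKM, Prkcq at 5.07 ± 0.406 RPKM and Prkch at 1.30 ± 0.132 RPKM. The ranges of neighbours in this order did not overlap, with 2 exceptions. Prkcb and Prkcz had overlapping ranges, although Prkcb was above Prkcz in 6 of 6 libraries. Prkci and Prkca also overlapped, and Prkci was above Prkca in 4 of 6 libraries.

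Expressed as a share of the summed RPKM of the 8 genes, Prkce took 34.7%, Prkcb 19.6%, Prkcz 16.9%, Prkci 11.2% and Prkca 10.8%. Prkcd took 3.79%, Prkcq 2.33% and Prkch 0.595%. The shares depend on the annotated exons. The exonic length was 2645 bases for Prkce, the shortest of the 8, and 8703 bases for Prkca, the longest, and without division by length Prkca took 21.1% and Prkce 20.6% of the summed CPM. By class, the classical isoforms held 29.6% to 30.3% in the control libraries and 30.4% to 31.5% in the ethanol libraries. The groups were only narrowly apart, with 30.31% in control replicate 1 and 30.37% in ethanol replicate 2. Without division by length, the groups overlapped in this share. The share of Prkci was 11.1% to 11.9% in the controls and 10.7% to 11.0% after ethanol, again without overlap. The CPM of Prkci was not lower in the same way. Ethanol replicates 1 and 2 lay above every control, and the log2 fold change was 0.016. The calcium-independent isoforms held 39.0% to 43.4% and the atypical isoforms 26.5% to 29.9% over all 6 libraries, with overlapping groups. These shares are given as descriptions without a test. In CPM, 8.85% of all genes tested had groups without overlap, and no such background was counted for shares.

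**Figure D1:**
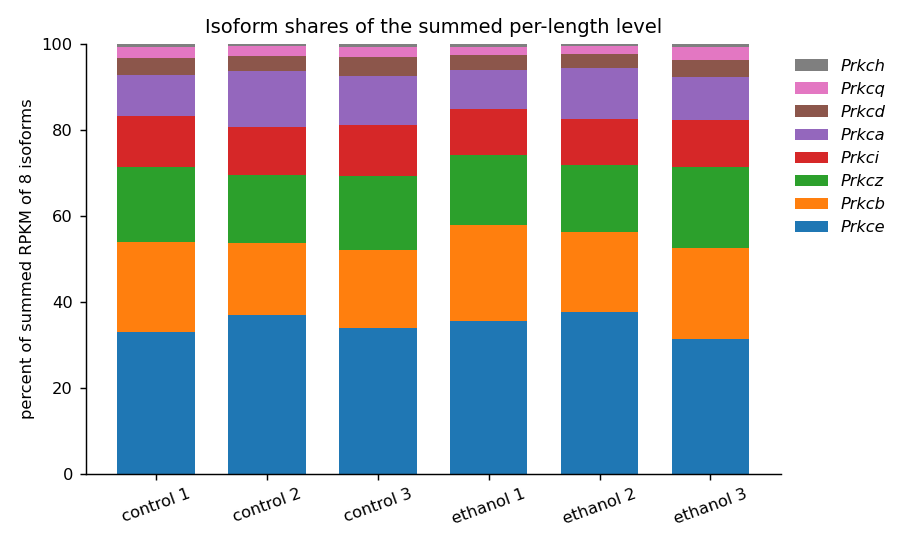
Each bar is 1 library and shows the percent of the summed RPKM of the 8 isoforms held by each isoform. Prkce holds between 31.4% and 37.5% in every library, and Prkch is below 0.717% throughout.

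RefSeq promoter windows of the GRCr8 build, with 250 bases before and 50 after the annotated start, were held for 6 of the 8 isoforms. They are shown for Prkca and Prkce, whose levels varied most between libraries within a group, and for Prkcz, whose level varied least. Capitals mark GGGCGG (the GC box bound by Sp1) on either strand. The Prkca window is chr10:93787278-93787577, the Prkce window chr6:14204239-14204538 and the Prkcz window chr5:171212625-171212924. Each is on the minus strand of GRCr8 and written 5′ to 3′. In Rnor_6.0, the build of the counts, Prkca and Prkcz are also on the minus strand, but Prkce is on the plus strand. Whether the Prkce window is the start of the gene counted was not tested.
Prkca: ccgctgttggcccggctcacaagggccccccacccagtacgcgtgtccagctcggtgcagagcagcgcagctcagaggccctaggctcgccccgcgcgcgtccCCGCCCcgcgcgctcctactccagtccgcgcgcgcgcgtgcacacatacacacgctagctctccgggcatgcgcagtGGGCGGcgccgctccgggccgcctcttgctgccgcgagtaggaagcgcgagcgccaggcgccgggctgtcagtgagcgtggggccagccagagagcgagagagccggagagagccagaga
Prkce: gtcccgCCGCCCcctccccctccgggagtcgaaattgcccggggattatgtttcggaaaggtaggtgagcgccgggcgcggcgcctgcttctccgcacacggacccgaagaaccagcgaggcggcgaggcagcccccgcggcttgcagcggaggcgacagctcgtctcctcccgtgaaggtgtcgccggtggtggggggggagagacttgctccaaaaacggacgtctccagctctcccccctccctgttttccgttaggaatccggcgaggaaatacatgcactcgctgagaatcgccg
Prkcz: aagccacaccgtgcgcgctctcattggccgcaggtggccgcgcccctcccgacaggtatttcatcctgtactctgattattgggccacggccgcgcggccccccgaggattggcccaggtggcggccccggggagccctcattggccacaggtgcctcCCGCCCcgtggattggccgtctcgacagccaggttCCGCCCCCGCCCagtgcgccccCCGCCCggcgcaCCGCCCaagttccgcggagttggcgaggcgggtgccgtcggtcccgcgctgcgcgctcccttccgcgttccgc

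The Prkca window holds 2 matches to GGGCGG, the Prkce window 1 and the Prkcz window 5, and Prkci, Prkcd and Prkcq hold 3, 5 and 1. Of all 33469 promoter windows, 33.1% hold at least 1 match. The 3 windows printed have 39, 33 and 38 CpG dinucleotides, against a median of 7 over all windows. TGACTCA, the AP-1 element through which phorbol esters act by way of PKC, and TGACGTCA, the cAMP response element, were in none of the 6 windows on either strand, while 4.63% and 1.83% of all windows hold them. TATAAA was in the Prkcd window only, with 1 match, and in 14.2% of all windows. No motif searched overlapped another motif in these windows, though matches to GGGCGG can overlap each other. A match is a run of letters and is not evidence of binding.

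None of the 8 isoforms had an adjusted p below 0.2. Prkcb had the largest difference, with a fitted level 1.21-fold that of the controls, and was the only isoform with an unadjusted p below 0.05 (1 of 8, beside 4.15% of all genes tested). Prkcz was the only isoform whose ethanol libraries all lay above its control libraries (1 of 8, beside 8.85% of all genes tested without overlap in either direction and 3.65% in this direction). Without ethanol replicate 3, 3 isoforms, Prkcb, Prkcz and Prkce, had an unadjusted p below 0.05 in the edgeR test, beside 8.87% of all genes, and 0 isoforms did without control replicate 2, control replicate 3 or ethanol replicate 1. Of the 8 log2 fold changes, 6 were above 0 and 2 below, with a median of 0.067, beside a median of 0.0064 and 52.6% above 0 over all genes tested. The adjusted p was 1.00 for each isoform (Benjamini-Hochberg over the edgeR test of all genes). Permutation tests given for single isoforms are exact and 2-sided on log2 CPM, and with the 20 ways of labelling 3 against 3 libraries their smallest p is 0.1.

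**Figure D2:**
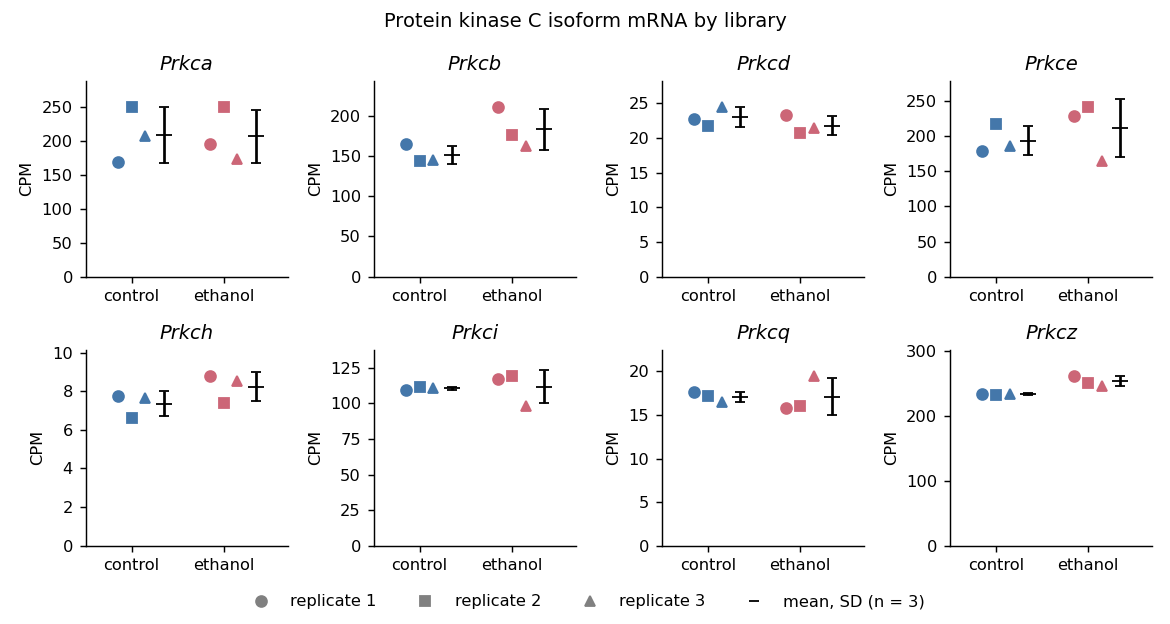
Each panel shows the CPM of 1 isoform in the 3 control and 3 ethanol libraries, with the mean and SD of each group beside the points. The groups are apart for Prkcz, and the points of Prkca and Prkce spread widely within both groups.

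Prkca encodes PKC alpha, a classical isoform found in many cell types (NCBI gene 24680, chromosome 10 from 96186509 to 96585168 in Rnor_6.0, 18 exonic blocks). Its level was 168, 250 and 206 CPM in control replicates 1, 2 and 3 and 195, 250 and 174 CPM in ethanol replicates 1, 2 and 3. The groups covered nearly the same range. Its log2 fold change was -0.015 (standard error 0.17, 95% interval -0.41 to 0.38, unadjusted p = 0.933 from edgeR's quasi-likelihood test), and the exact permutation test gave p = 0.9. The spread within groups was the widest of the 8 isoforms, with a pooled SD of 0.28 on the log2 scale. Across the 14241 genes that exceeded 1 CPM in all libraries the median was 0.11, and 91.3% of these genes had a smaller SD than Prkca.

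Prkcb encodes PKC beta, a classical isoform that is abundant in forebrain neurons and in immune cells (NCBI gene 25023, chromosome 1 from 192233569 to 192575339, 20 exonic blocks). Its level was 165, 144 and 146 CPM in the control libraries and 212, 176 and 162 CPM in the ethanol libraries. Ethanol replicates 1 and 2 lay above every control, while ethanol replicate 3 lay just under control replicate 1. Mean Prkcb was 152 ± 11.6 CPM in controls and 183 ± 25.5 CPM in ethanol libraries (SD, n = 3 each). This is a log2 fold change of 0.27 (standard error 0.11, 95% interval 0.025 to 0.52, unadjusted p = 0.035 from edgeR's quasi-likelihood test). The exact permutation test gave p = 0.2. Leaving out ethanol replicate 1 brought Prkcb to a log2 fold change of 0.16 (unadjusted p = 0.124), and without control replicate 2 or control replicate 3 the unadjusted p was 0.102 and 0.101 from the same edgeR test. With ethanol replicates 1 and 2 both left out it was 0.099 (unadjusted p = 0.38, edgeR).

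Prkce encodes PKC epsilon, a calcium-independent isoform of neurons (NCBI gene 29340, chromosome 6 from 9483400 to 9973396, 25 exonic blocks). Its level was 179, 218 and 186 CPM in the controls and 229, 242 and 165 CPM after ethanol. Ethanol replicates 1 and 2 held the highest values and ethanol replicate 3 the lowest of all 6 libraries. Prkce had a log2 fold change of 0.13 (standard error 0.15, 95% interval -0.21 to 0.47, unadjusted p = 0.407 from edgeR's quasi-likelihood test). It was 0.28 without ethanol replicate 3 (unadjusted p = 0.0188 and adjusted p = 0.469, edgeR), 0.023 without ethanol replicate 2, and -0.23 when ethanol replicates 1 and 2, which had few choroid plexus marker counts, were both left out. The pooled SD within groups was 0.24 on the log2 scale, larger than in 87.3% of genes above 1 CPM.

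Prkcd encodes PKC delta, a calcium-independent isoform that is also strongly expressed in the thalamus (NCBI gene 170538, chromosome 16 from 6655131 to 6675746, 18 exonic blocks). Its level was 22.8, 21.7 and 24.5 CPM in the controls and 23.3, 20.7 and 21.4 CPM after ethanol. The groups overlapped, and the log2 fold change was -0.079 (standard error 0.077, 95% interval -0.26 to 0.10, unadjusted p = 0.339 from edgeR's quasi-likelihood test). The interval corresponds to a fold of 0.836 to 1.07. The summed level of the 10 thalamic markers was 283 to 363 CPM in the controls and 301 to 370 CPM after ethanol, and that of the 17 GABA neuron markers 1145 to 1501 CPM and 1187 to 1430 CPM. In each group replicate 2 was lowest in both marker sums and in Prkcd, whereas Prkcd was highest in control replicate 3, which was highest in neither sum. The part of cell composition in Prkcd was not tested. Leaving out 1 library moved the log2 fold change of Prkcd to between -0.13, without ethanol replicate 1, and -0.031, without control replicate 3.

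Prkcq encodes PKC theta, a calcium-independent isoform known for its role in T cell receptor signaling (NCBI gene 85420, chromosome 17 from 70971915 to 71105286, 18 exonic blocks). Its level was 17.6, 17.1 and 16.5 CPM in the controls and 15.8, 16.0 and 19.5 CPM after ethanol, with the ethanol libraries on both sides of the controls. The log2 fold change was 0.0033 (standard error 0.097, 95% interval -0.22 to 0.23, unadjusted p = 0.974 from edgeR's quasi-likelihood test). The 7 T cell markers summed to 8.64 to 10.5 CPM in the controls and 7.78 to 10.2 CPM after ethanol, and 5 of the 7 were under 1 CPM in at least 1 library.

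Prkch encodes PKC eta, a calcium-independent isoform known from epithelia and immune cells (NCBI gene 81749, chromosome 6 from 96479243 to 96677368, 15 exonic blocks). It had 470 to 508 counts in the control libraries and 475 to 594 counts in the ethanol libraries. Its level was 7.77, 6.62 and 7.67 CPM in the controls and 8.80, 7.38 and 8.53 CPM after ethanol. Ethanol replicates 1 and 3 lay above every control, and ethanol replicate 2 did not. For Prkch the log2 fold change was 0.17 (standard error 0.11, 95% interval -0.095 to 0.42, unadjusted p = 0.18 from edgeR's quasi-likelihood test).

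Prkci encodes PKC iota, an atypical isoform of the cell polarity complex (NCBI gene 84006, chromosome 2 from 115941998 to 116002550, 18 exonic blocks). Its level was 109, 111 and 111 CPM in the controls and 117, 119 and 98.2 CPM after ethanol. The 3 controls lay within 1.02-fold of each other, with a coefficient of variation of 0.831%, while counting alone gives 1.17%. Ethanol replicates 1 and 2 lay above and ethanol replicate 3 below all controls, and the coefficient of variation was 10.5% after ethanol. Prkci had a log2 fold change of 0.016 (standard error 0.081, 95% interval -0.17 to 0.20, unadjusted p = 0.851 from edgeR's quasi-likelihood test).

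Prkcz encodes PKC zeta, the other atypical isoform, and the same gene gives the brain transcript of the constantly active form PKM zeta (NCBI gene 25522, chromosome 5 from 172658071 to 172769492, 22 exonic blocks). Counts per gene do not separate these transcripts. Its level was 234.7, 232.1 and 234.6 CPM in the controls and 262.5, 251.7 and 247.3 CPM after ethanol. All 3 ethanol libraries lay above all 3 controls (exact permutation p = 0.1, the lowest possible here). Mean Prkcz was 233.8 ± 1.47 CPM in controls and 253.9 ± 7.83 CPM in ethanol libraries (SD, n = 3 each). This is a log2 fold change of 0.12 (standard error 0.059, 95% interval -0.018 to 0.26, unadjusted p = 0.0801 from edgeR's quasi-likelihood test). The pooled SD within groups was 0.032 on the log2 scale, and only 2.39% of genes above 1 CPM had a smaller one. In the controls the coefficient of variation was 0.631%, under the 0.802% that counting alone gives. Leaving out any 1 library kept the log2 fold change of Prkcz between 0.094 and 0.14.

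**Figure D3:**
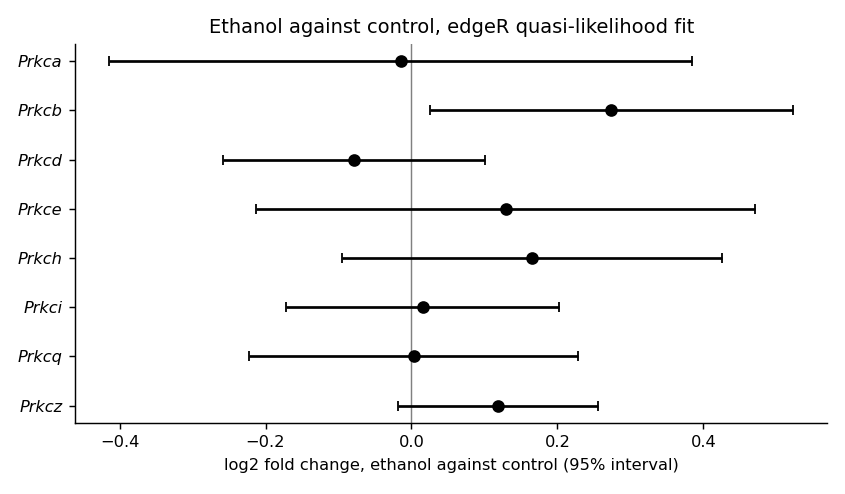
Points are log2 fold changes of the 8 isoforms, ethanol against control, and bars are 95% intervals from the edgeR quasi-likelihood fit. The interval of Prkcb, 0.025 to 0.52, is the only one that does not include 0, before adjustment for the number of genes tested.

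The exons of the 8 genes share no bases with another annotated gene on either strand. Prkca and Prkce had their 2 lowest levels in control replicate 1 and ethanol replicate 3. The root-mean-square difference between their log2 CPM profiles, each centred on its mean over the 6 libraries, was 0.15. For Prkca and Prkcb it was 0.32, although both are classical isoforms. The largest of all pairs was 0.34, for Prkca and Prkch.

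Some marker sums followed a similar order of libraries. The 10 glutamatergic markers summed to 1453, 2034 and 1761 CPM in the controls and 2016, 2352 and 1457 CPM after ethanol, lowest in the same libraries as Prkca and Prkce. The 9 oligodendrocyte markers summed to 9021, 3873 and 6294 CPM in the controls and 4718, 6519 and 10386 CPM after ethanol, highest in those libraries. Prkcq, at 17.6 CPM in control replicate 1 and 19.5 CPM in ethanol replicate 3, was highest where the oligodendrocyte sum was highest, but at 17.1 CPM it was higher in control replicate 2, which had the lowest sum, than in the other 3 libraries. The part of cell composition in the isoform levels was not tested.

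**Figure D4:**
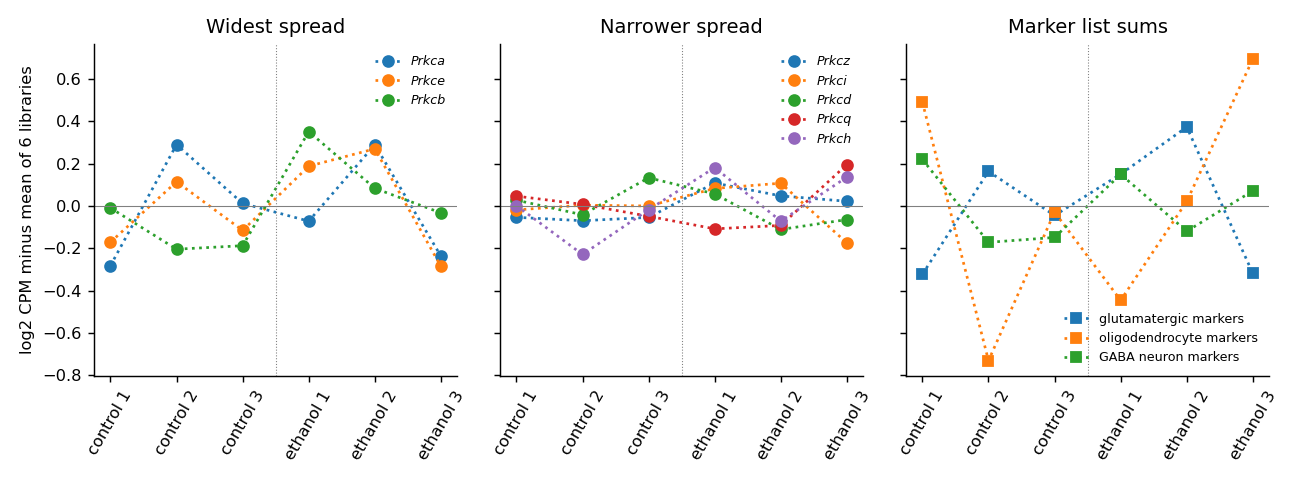
The vertical axis is log2 CPM minus the mean over the 6 libraries, for 3 isoforms with a wide spread (left), the other 5 isoforms (middle) and the summed level of 3 marker lists (right). Dotted lines join the points of 1 gene or list, and the vertical line parts the groups. Prkca, Prkce and the glutamatergic sum are low in control replicate 1 and ethanol replicate 3, where the oligodendrocyte sum is high.

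Around the isoforms, 81 genes of 6 lists of the PKC pathway were examined, and all 81 were tested. None had an adjusted p below 0.2, and 3 had an unadjusted p below 0.05 (edgeR's quasi-likelihood test), all of them higher after ethanol, beside 4.15% of all genes in either direction and 1.57% in this direction. The groups did not overlap for 6 higher genes and 1 lower gene, beside 3.65% and 5.19% of all genes. The median log2 fold change of the 81 genes was 0.049, with 58 above 0 and 23 below. Over all genes tested, the median was 0.0064 and 52.6% were above 0. Without ethanol replicate 3, 13 of the 81 had an unadjusted p below 0.05, while 8.87% of all genes did (edgeR).

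Upstream, 0 of 16 genes of Gq proteins and phospholipase C had an unadjusted p below 0.05, with a median log2 fold change of 0.023. The most abundant per length were Gnaq and Gna11, the alpha subunits that activate phospholipase C beta, with 59.7 ± 2.86 and 45.2 ± 2.44 CPM (SD, n = 3) in controls and 63.2 ± 6.22 and 47.5 ± 0.535 CPM after ethanol.

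Among 14 genes of diacylglycerol turnover and inositol trisphosphate receptors, 1 had an unadjusted p below 0.05. Dgkh, a diacylglycerol kinase that removes the lipid activating PKC, was at 41.4, 42.3 and 41.3 CPM in controls and 47.8, 43.2 and 50.2 CPM after ethanol, which gave a log2 fold change of 0.18 (standard error 0.069, unadjusted p = 0.0357 and adjusted p = 1.00, edgeR). The groups did not overlap. The unadjusted p of Dgkh was 0.085 with library size alone and between 0.0555 and 0.106 when any library other than ethanol replicate 2 was left out (edgeR). Dgkz and Dgkg, the most abundant kinases of the list per length, had log2 fold changes of 0.16 and -0.14, with unadjusted p = 0.0731 and 0.638 from edgeR.

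None of 11 maturation genes and none of 14 anchoring genes had an unadjusted p below 0.05, with median log2 fold changes of 0.054 and 0.025. Hsp90ab1, a chaperone of maturing kinases, had a log2 fold change of 0.020. Rack1, the receptor for activated C kinase, had a log2 fold change of 0.018, and Sqstm1, a scaffold of the atypical isoforms, of 0.069.

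Among 11 substrates, Marcksl1, an actin-regulating relative of the PKC substrate MARCKS, was at 20.2, 23.1 and 22.1 CPM in controls and 24.9, 24.9 and 25.2 CPM after ethanol. The ethanol libraries all lay above every control, with a log2 fold change of 0.20 (standard error 0.070, unadjusted p = 0.025 and adjusted p = 1.00, edgeR). For Marcksl1 the unadjusted p was 0.0995 without control replicate 1, 0.0587 without ethanol replicate 1 and 0.0544 without ethanol replicate 2 (edgeR). Snap25, of the release machinery, and Nrgn, a calmodulin-binding postsynaptic protein, were the most abundant per length, with log2 fold changes of 0.12 and 0.10 (standard errors 0.12 and 0.15).

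Among 15 other diacylglycerol-binding and related proteins, Rasgrp1 had the largest difference of the 81 genes. It encodes a diacylglycerol-activated exchange factor for Ras that is itself phosphorylated by PKC. Its level was 121, 101 and 104 CPM in controls and 208, 158 and 145 CPM after ethanol, without overlap. Rasgrp1 had a log2 fold change of 0.65 (standard error 0.14, 95% interval 0.32 to 0.97, unadjusted p = 0.00177 and adjusted p = 0.818, edgeR's quasi-likelihood test). DESeq2 gave an adjusted p of 0.00826 for Rasgrp1, and edgeR's quasi-likelihood test gave 0.176 without ethanol replicate 3. Over the alternatives tried, its log2 fold change ran from 0.41, with ethanol replicates 1 and 2 both left out, to 0.75, without ethanol replicate 3. Chn1, a Rac-inactivating protein and the most abundant of the list per length, had a log2 fold change of 0.20 (standard error 0.13, unadjusted p = 0.171, edgeR).

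**Figure D5:**
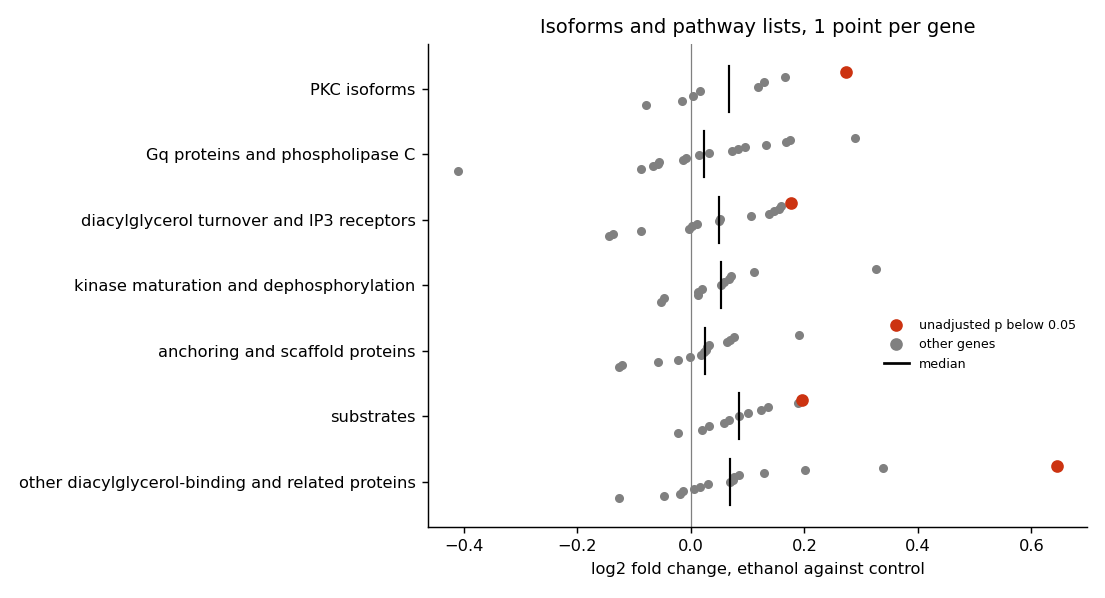
Each point is 1 gene, placed by its log2 fold change, ethanol against control, for the 8 isoforms and the 6 pathway lists. Red points have an unadjusted p below 0.05, and black lines are medians. Rasgrp1 stands apart at 0.65, and the list medians lie between 0.023 and 0.085.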

How the data were processed

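Per the labels, total RNA was made into stranded mRNA libraries and sequenced as single-end reads of 100 nt. The authors' processing notes name STAR 2.7.0f and Subread 1.6.3. The authors deposited raw counts, in which featureCounts summed reads over exons by gene identifier (Rnor_6.0, strand setting 2 per the file headers). Multi-mapping reads and reads on more than 1 gene were not set to be counted. Symbols were matched for 29322 of 38445 gene identifiers through RefSeq's GRCr8 gene table.

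Here, counts were analysed in R 4.3.3 with edgeR 4.0.16. The filterByExpr filter asked for at least 15 counts in total. It also asked, in at least 3 libraries, for the CPM that equals 10 counts at the median library size. Genes passing it were scaled by TMM (factors 0.976 to 1.01) and compared by edgeR's quasi-likelihood test. P-values were adjusted by Benjamini-Hochberg over all genes, with a threshold of 0.2. Standard errors are the log2 fold change divided by the square root of F. Log2 CPM carries a prior count of 2. Exact permutation tests used scipy 1.17.1. DESeq2 1.42.0 was an alternative. The fit was tested on simulated counts with larger changes than any isoform showed and without differences in cell composition. The simulation does not cover differences as small as those of the isoforms.

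Depth gives a floor of 0.0424 to 0.0479 CPM for 3 counts, covering counting error only. Libraries of a group differed by a chi-square per degree of freedom of 15.1 to 72.6, so none was a repeat of another. Isoforms, gene lists and markers were chosen with earlier results of these data known. Named were the isoforms, list genes with an unadjusted p below 0.05, the 2 most abundant genes of each list, and, for Prkcd and the isoform varying most, the 5 genes most alike in profile. A gene that the rule names is not reported here.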

Additional observations from a re-analysis of the deposited data

How the results depend on the processing

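No isoform reached an adjusted p below 0.2 under any alternative tried. Genes with an adjusted p under 0.2 numbered 0 from edgeR and 75 with DESeq2, and with each library left out in turn they ran from 0 to 83, with 83 without ethanol replicate 3 and 4 without ethanol replicate 1. The number with an unadjusted p below 0.05 was 753, ran from 570 to 1629 with each library left out, and was 1142 with ethanol replicates 1 and 2 both left out, an alternative chosen after seeing the data that leaves 1 ethanol library, assumed to vary like the controls. In the same way, the isoforms with an unadjusted p below 0.05 numbered 1, ran from 0 to 3 with each library left out and were 0 without those 2 libraries, and the pathway genes numbered 3, ran from 1 to 13 and were 9. The log2 fold change of Prkca ran from -0.18 to 0.14 with each library left out, that of Prkci from -0.035 to 0.10 and that of Prkcq from -0.10 to 0.057, all crossing 0. Prkcd ran from -0.13 to -0.031, Prkce from 0.023 to 0.28 and Prkch from 0.095 to 0.24. Prkci was at -0.013 and Prkcq at -0.021 with library size alone, Prkci was at -0.17 and Prkce at -0.23 without ethanol replicates 1 and 2, and the cause was not tested. Without division by length the shares were 21.1% for Prkca, 17.1% for Prkcb, 2.30% for Prkcd, 20.6% for Prkce, 0.801% for Prkch, 1.76% for Prkcq and 24.97% for Prkcz, which follows from the lengths.

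The replicate numbers 1 to 3 are shared by the groups but the rats differ. Deviations from the group means of same-numbered libraries correlated by 0.0264, 0.388 and 0.211, and control replicate 1 correlated by 0.305 with ethanol replicate 3, so not every library correlated best with its own number. With the replicate block, 0 genes had an adjusted p below 0.2 (edgeR), 1015 had an unadjusted p below 0.05, pathway genes with an unadjusted p below 0.05 numbered 7, and Prkcq was at -0.0030.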

Other observations

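The genes whose centred log2 CPM profile over the 6 libraries was most like that of Prkca, among 13751 named genes above 1 CPM in every library, were Ddo, Fgf13, Nrp2, Lats2 and Mical1, with root-mean-square differences of 0.023, 0.035, 0.038, 0.042 and 0.051. The profile of Prkca itself had a root-mean-square of 0.23. Nrp2, a semaphorin receptor of axon guidance, was at 101, 151 and 119 CPM in controls and 114, 140 and 103 CPM after ethanol, and Fgf13, an intracellular partner of sodium channels, at 196, 276 and 238 CPM and 233, 289 and 203 CPM. Both were highest in control replicate 2 and ethanol replicate 2, as Prkca was, which follows from their choice by likeness to its profile. For Prkcd, whose profile was flatter with a root-mean-square of 0.081, the nearest genes were Il6st, Giot1, Map3k20, Cep57l1 and Mmaa, with differences of 0.020 to 0.026. Within each group, Prkcb, Prkcz and Rasgrp1 had the same order of libraries, highest in replicate 1 of both groups. For Prkcz, control replicates 1 and 3 were at 234.67 and 234.60 CPM. They lay closer together than the 0.802% that counting alone gives, so their order is not resolved. The share of all genes with this order was not counted.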
